A study of Rattus norvegicus with 12 samples.

Results

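The neurotrophins Bdnf, Ntf3 and Ntf4, their kinase receptors Ntrk2 and Ntrk3, the shared receptor Ngfr and the sorting receptor Sort1 were measured in forebrain RNA of rats that had spent 3 hours in a new environment and of rats that had not. The members were all probe sets that the platform annotation assigns to exactly 1 of these 7 gene symbols, which gave 13 of the 31042 probe sets for transcripts on the array. Bdnf had 2 probe sets, Ntrk2 had 5, Sort1 had 2 and each other member had 1.

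All 12 animals were male Long Evans rats, 6 weeks old, each kept alone in its cage for several days beforehand. The 6 exposed animals then spent 3 hours in an unfamiliar enclosure furnished with objects that varied in form and colour, while the 6 control animals did not, and forebrain total RNA of each animal was hybridised to 1 Affymetrix rat array. No genotype, drug or transgene is named in the labels, and no dissection of the forebrain into regions, so each value averages cortex, hippocampus, striatum and whatever else the sample held. In such whole-tissue RNA, fewer cells of a type and less RNA per cell cannot be told apart. Markers of the labelled tissue were high, with a summed intensity of 68822 to 73312 over 12 neuron markers on the 12 arrays. Arrays of exposed animals 5 and 3 stood apart from the rest, with a median correlation of 0.9949 and 0.9950 with others of their group. Each of the other 10 arrays had at least 0.99685. Several results that rest on animal 5, but not all, are given with and without it.

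Neurotrophins are secreted proteins that keep neurons alive and adjust their synapses. Each is made as a precursor, which is cleaved, and the mature protein binds a Trk receptor tyrosine kinase: BDNF, the product of Bdnf, and neurotrophin 4, from Ntf4, bind TrkB (Ntrk2), and neurotrophin 3, from Ntf3, binds mainly TrkC (Ntrk3). All of them also bind p75 (Ngfr), to which sortilin (Sort1) is a partner for the uncleaved precursors, and sortilin also steers BDNF into secretory vesicles. In forebrain, Bdnf is a classic activity-regulated gene of excitatory neurons in cortex and hippocampus, TrkB is made by neurons and, in a form without the kinase, by astrocytes, and p75 is largely a protein of cholinergic neurons of the basal forebrain.

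Bdnf is transcribed from several alternative starts, each with its own first exon spliced to 1 shared coding exon. The RefSeq table of rat promoters (build GRCr8) lists 6 starts of Bdnf within the gene, which spans chr3:116619633-116670212 with 11 RefSeq transcripts. It also lists 3 starts of Ntf3, 1 of Ntf4 and 1 of Sort1, so that 4 of the 7 members had an entry. The 250 bases before starts 1 and 4 of Bdnf, counted along the plus strand, are shown because each holds a variant of the cAMP response element, the site of CREB family factors through which neuronal activity is known to act on this gene. Bases run 5′ to 3′ on the plus strand, and capitals mark the match.
Bdnf start 1, chr3:116619383-116619632: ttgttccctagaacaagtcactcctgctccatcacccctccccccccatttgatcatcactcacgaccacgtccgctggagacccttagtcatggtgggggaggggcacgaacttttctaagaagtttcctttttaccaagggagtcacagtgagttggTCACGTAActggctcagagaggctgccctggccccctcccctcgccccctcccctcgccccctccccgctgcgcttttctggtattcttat
Bdnf start 4, chr3:116637608-116637857: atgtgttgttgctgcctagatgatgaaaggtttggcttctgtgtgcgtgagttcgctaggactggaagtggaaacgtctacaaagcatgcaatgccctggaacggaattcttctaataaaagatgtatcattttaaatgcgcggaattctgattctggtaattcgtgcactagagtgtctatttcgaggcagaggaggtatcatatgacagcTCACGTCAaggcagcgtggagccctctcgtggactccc

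The capitals are TCACGTAA, 91 to 84 bases before start 1, and TCACGTCA, 38 to 31 bases before start 4. Both letter strings were chosen with these windows in view. Searched on both strands in the same 250 bases of all 33469 starts in the table, TCACGTAA was found at 0.188% of starts, TCACGTCA at 0.35% and the full palindrome TGACGTCA at 1.59%. Any of the 3 strings was found at 2 of the 6 Bdnf starts, at 0 of the 3 Ntf3 starts, at the Ntf4 and Sort1 starts in 0 of 1 each, and at 2.09% of all starts. Both Bdnf matches are the strings chosen with these windows in view, and TGACGTCA was found at no Bdnf start. The windows of Bdnf starts 5 and 6 overlap, as do those of Ntf3 starts 1 and 2, so the counts are not of separate sequences. The AP-1 site TGACTCA (4.05% of all starts), the E-box CACGTG (5.59%) and the EGR site GCGTGGGCG (0.478%) had no match in the windows of these 4 members. A match is a string of letters and not evidence that a factor binds there. Which start the measured Bdnf RNA came from was not analysed here.

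Bdnf rose in the exposed animals at both of its probe sets, and it was the only member gene with a probe set that passed the test across the array. At the brighter probe set (1368677_at) control animals had a lowest, median and highest intensity of 485, 647 and 694, and exposed animals of 819, 1269.9 and 1424. All exposed animals lay above all control animals. The mean went from 620.5 ± 87.7 (SD, n = 6) to 1223 ± 214 (SD, n = 6), a log2 change of 0.97 ± 0.14 (SE of the limma fit) with a 95% interval of 0.66 to 1.28 (limma adjusted p = 0.00391). As a fold change this was 1.96, with an interval from 1.58 to 2.43.

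At the dimmer Bdnf probe set (1368678_at) the control values were 148, 163 and 177 and the exposed values 204, 219 and 255, again without overlap. The mean went from 163 ± 12.5 (SD, n = 6) to 223 ± 18.7 (SD, n = 6), a log2 change of 0.45 ± 0.07 with an interval of 0.31 to 0.60 (1.37-fold, fold interval 1.24 to 1.51, limma adjusted p = 0.00395). The exact two-sided permutation test over all assignments of 6 of the 12 animals gave p = 0.00216 for each Bdnf probe set, the smallest it can give. The change at the dimmer probe set was smaller than that at the brighter one by 0.52 ± 0.13 on the log2 scale, which did not pass when all 6609 such pairs of the array were tested (limma adjusted p = 0.128).

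**Figure D1:**
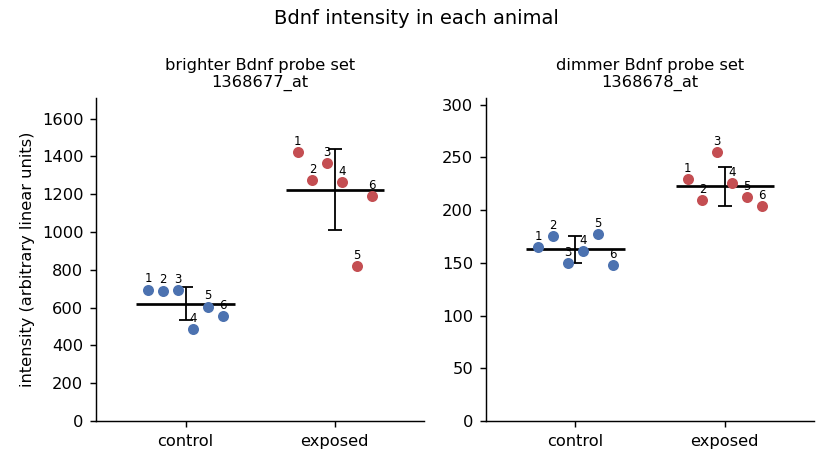
Intensity of the 2 Bdnf probe sets (vertical axes, arbitrary linear units from 0) in 6 control and 6 exposed animals. Points are animals with their number in the labels, horizontal lines are group means and bars are ± 1 SD. Every exposed animal lies above every control animal at both probe sets, and exposed animal 5 is the lowest of its group at the brighter one, at 819.

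Exposed animal 5 had the smallest Bdnf increase at the brighter probe set, 1.33-fold over the control mean, while the other 5 exposed animals ran from 1189 to 1424. At the dimmer probe set it was 1.31-fold over the control mean and lay within its group. Without this animal the change of the brighter probe set was 1.08 ± 0.10 (limma adjusted p = 0.000462). Among control animals, numbers 1 to 3 read 690 to 694 at the brighter probe set and numbers 4 to 6 read 485 to 605, number 4 being the lowest. At the dimmer probe set these subsets overlapped and number 4, at 161, was not the lowest. The RNA quality measure given below split the control animals as the brighter probe set did, at 0.414 to 0.439 and 0.332 to 0.373. Its part in the Bdnf values of the control animals was not tested.

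The background of the array frames these calls. Over all 31042 probe sets 2.56% passed, 1.97% being higher at a Benjamini-Hochberg adjusted p under 0.05 and 0.599% lower, and 1.98% had every exposed animal above every control animal. Among the 13 member probe sets 2 passed, both higher and both of Bdnf, and 3 had every exposed animal above every control animal, the third being 1 of Ntrk2. No member probe set had every exposed animal below every control animal, against 0.725% of all.

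Neither of the other ligands passed the test. Ntf3, which supports proprioceptive sensory neurons, had control intensities of 123, 132 and 150.1 (lowest, median, highest) and exposed intensities of 114, 138 and 143. The groups overlapped almost wholly. Its log2 change was -0.04 ± 0.07, with an interval from 0.87-fold to 1.09-fold (limma adjusted p = 1). An increase in signal of the size seen for Bdnf lies outside that interval. The probe set was dim, though, with a mean level at percentile 38.0 of the array, which limits what can be said of the RNA. Ntf4, the second ligand of TrkB, had intensities of 46.9 to 54.4 in control and 46.8 to 53.1 in exposed animals. On 11 of the 12 arrays it was at or below the floor of 53.9 set for dim values, so no fold change is given.

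Ntrk2 was read by 5 probe sets, which can lie in different transcript forms of the receptor. The form each one reads was not given in the sources used here. All 5 had a positive change and none passed over the whole array. At probe set 1368972_at the control intensities were 2758, 2973 and 3158 (lowest, median, highest) and the exposed intensities 3180.5, 3321 and 4025. The groups did not overlap, by a margin that was small beside the spread within them. Its log2 change was 0.20 ± 0.06 (1.15-fold, interval 1.05 to 1.26, limma adjusted p = 0.122, exact permutation p = 0.00216).

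Probe set 1370687_a_at ran from 1765 to 1990.5 in control animals (median 1933) and from 1974 to 2313 in exposed animals (median 2083). All but 1 of its 6 exposed values exceeded the highest control value, with a log2 change of 0.14 ± 0.04 (limma adjusted p = 0.119, exact permutation p = 0.00433). Without exposed animal 5, the highest at 2313, the change was 0.11. Probe set 1370652_at, the dimmest, ran from 213 to 292 in control animals (median 234) and from 266 to 452 in exposed animals (median 324). It had the largest change of the receptor, 0.50 ± 0.15 (1.41-fold, interval 1.12 to 1.77, limma adjusted p = 0.135), with 4 of 6 exposed values higher than any control value, of which animals 4 and 6 were the highest at 452 and 449.

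Of the remaining pair of Ntrk2 probe sets, 1 had a small change and 1 a single high animal. The brightest, 1383135_at, ran from 3846 to 3987 in control animals (median 3953) and from 3790 to 4273 in exposed animals (median 4109.99). Its change was 0.05 ± 0.03, with an upper bound of 1.07-fold (limma adjusted p = 0.476). Probe set 1397246_at ran from 835 to 1050.4 in control animals (median 919.99) and from 951 to 2147 in exposed animals (median 1009.8), where 5 of the 6 exposed animals were at or below 1039 and only animal 5 stood higher. Its change of 0.29 ± 0.19 (limma adjusted p = 0.614) became 0.11 ± 0.06 without animal 5 (limma adjusted p = 0.575).

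The changes of the 4 dimmer Ntrk2 probe sets exceeded that of the brightest by 0.09 to 0.45 on the log2 scale, and none of these differences passed over the 6609 pairs (limma adjusted p from 0.233 to 0.691), of which 0.908% passed in all. When the 5 probe sets were averaged per animal, Ntrk2 had a change of 0.23 ± 0.05 and passed over 14217 genes treated in the same way (limma adjusted p = 0.0247). The share of all genes that passed under this averaging was not worked out. With 1 animal left out, a check added after seeing the data, that average changed by 0.19 to 0.26 at limma adjusted p from 0.0129 (without exposed animal 5) to 0.0590, and the call was lost without control 3, 4, 5 or 6 or exposed animal 4 and stood at 0.05 without exposed animal 6. Probe sets 1368972_at and 1370652_at also passed once the dimmest 40% of the array was dropped (limma adjusted p = 0.0487 and 0.0460). Without exposed animal 5 their changes were 0.15 and 0.57 (limma adjusted p = 0.0895 and 0.0886). A call for Ntrk2 was thus present under some of these settings and absent under others. The sign was positive for each of the 5 in all 26 alternatives. These reuse the same animals and arrays, so the kept sign is no independent support for a change.

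Ntrk3, the receptor of neurotrophin 3, ran from 178 to 216 in control animals (median 199) and from 199 to 334 in exposed animals (median 219). The highest control value was exceeded in 3 exposed animals and not in the other 3. The change was 0.24 ± 0.12 (interval from 0.98-fold to 1.42-fold, limma adjusted p = 0.438, exact permutation p = 0.0476), and 0.14 ± 0.07 without exposed animal 5, which was the highest at 334 (limma adjusted p = 0.479).

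**Figure D2:**
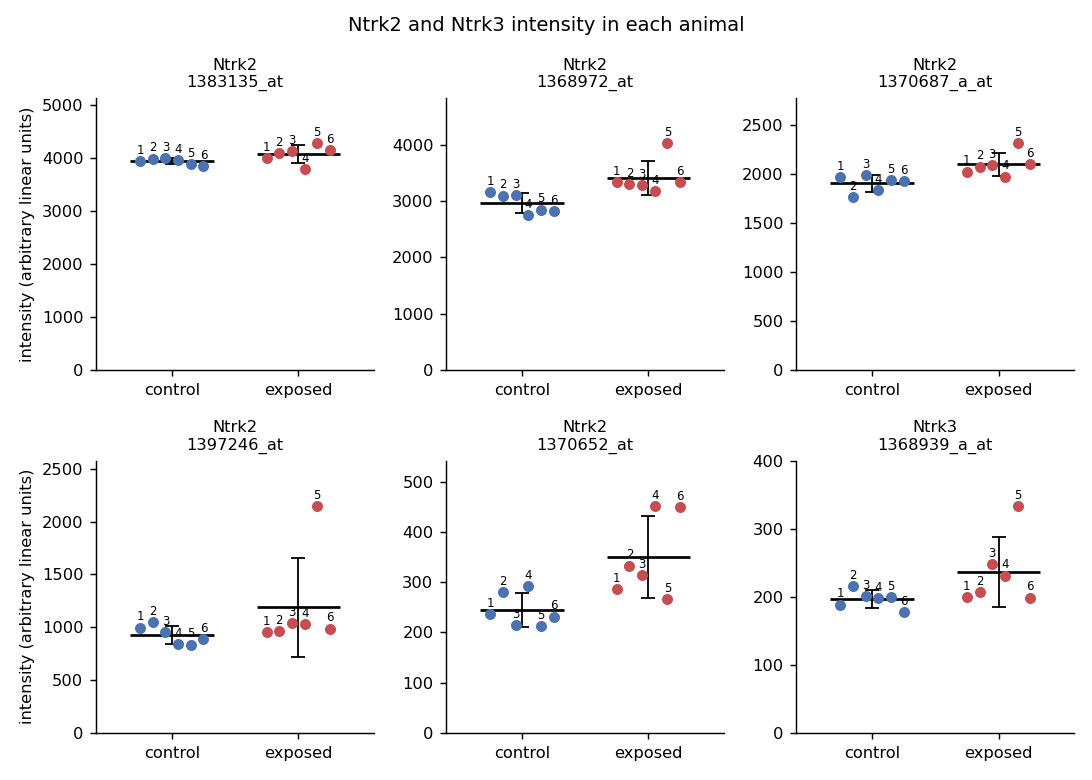
Intensity of the 5 Ntrk2 probe sets and the Ntrk3 probe set (vertical axes, arbitrary linear units from 0) in 6 control and 6 exposed animals. Points are animals with their number in the labels, horizontal lines are group means and bars are ± 1 SD. Exposed animal 5 is the highest at 4 of the 5 Ntrk2 probe sets and at Ntrk3, and at 1397246_at it reads 2147 while the other exposed animals lie between 951 and 1039.

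Exposed animal 5 therefore combined the lowest brighter-probe Bdnf value of its group with the highest Trk receptor values at 5 of 6 probe sets, the exception being 1370652_at, where it was the lowest exposed animal at 266. Its summed marker intensities lay within the range of the other exposed animals for cortex and hippocampus, neuron, astrocyte, oligodendrocyte, oligodendrocyte precursor, microglia and endothelial lists. They lay below that range for striatum (20318 against 20787 to 22807), thalamus (12665 against 13277 to 14322) and basal forebrain cholinergic markers (915 against 992 to 1043). For meningeal markers this animal lay above the range (28522 against 24917 to 28232). The part of these differences in its receptor values was not tested.

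Ngfr was near the floor. Its intensity ran from 42.9 to 76.4 in control animals and from 48.1 to 66.0 in exposed animals, and 2 of 12 arrays were at or below the floor. The change was -0.03 ± 0.08 (limma adjusted p = 1). The cholinergic markers of the neurons that carry p75 had no call by limma, 0 of 5 passing and 0 at an unadjusted p under 0.05. Among them Chat, the acetylcholine-synthesising enzyme, was at 99.9 ± 15.3 (SD, n = 6) in control and 109.9 ± 11.5 in exposed animals, and Slc5a7, the choline transporter, at 398 ± 21.6 and 384 ± 27.5. Sort1 had control intensities of 3509, 3826 and 4030.1 (lowest, median, highest) and exposed intensities of 3721, 3889.9 and 4239 at its brighter probe set. The groups overlapped. The change was 0.04 ± 0.04, with an interval from 0.97-fold to 1.09-fold (limma adjusted p = 0.820). Its dimmer probe set, at 676 to 766 in control and 573 to 825 in exposed animals, had a change of -0.04 ± 0.08 (limma adjusted p = 1).

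**Figure D3:**
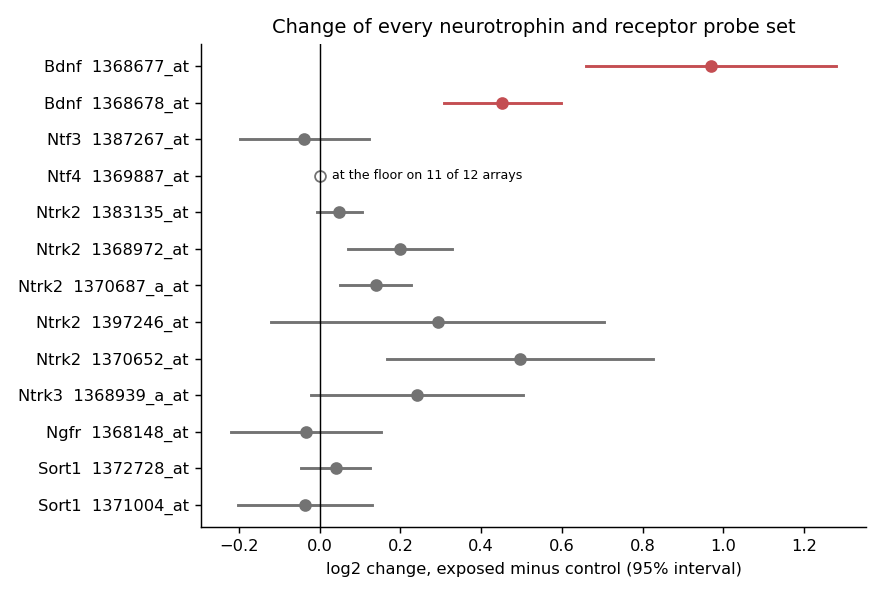
Log2 change of each member probe set (exposed minus control, horizontal axis) with its 95% interval from limma, 6 animals per group. Red marks the 2 Bdnf probe sets, at 0.97 and 0.45, which passed at an adjusted p under 0.05 over 31042 probe sets, and grey marks the others. Ntf4 is drawn without an interval because 11 of its 12 values were at or below the floor.

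The change of the brighter Bdnf probe set was larger than that of the brightest probe set of Ntrk2, Ntrk3, Ngfr, Sort1 and Ntf3. The log2 difference between the brighter Bdnf probe set and the brightest probe set of each other member was taken in every animal and compared between the groups, with 6 unadjusted exact permutation tests in all. The comparison with Ntf4 is not reported, since with Ntf4 at the floor on 11 of 12 arrays it repeats the Bdnf change. Bdnf exceeded Ntrk2 by 0.92 ± 0.16 (SE from the spread between animals), Sort1 by 0.93 ± 0.14 and the dim Ntf3 by 1.01 ± 0.17. It exceeded Ngfr, a dim gene with 2 arrays at the floor, by 1.00 ± 0.18. For each of these 4 all exposed animals lay above all control animals and the exact two-sided permutation p was 0.00216, the smallest possible. At the brighter Bdnf probe set the groups already had no overlap, and the 4 probe sets subtracted from it changed little. The 4 results thus largely repeat that separation and are not independent of each other. The difference from Ntrk3 was 0.73 ± 0.24 (exact two-sided permutation p = 0.0130), with 5 of 6 exposed values higher than any control value. The exception was exposed animal 5, with the lowest Bdnf and the highest Ntrk3 value of its group. This difference was not tested without that animal. The dimmer Bdnf probe set, at a log2 change of 0.45, and the dimmest of Ntrk2, at 0.50, did not show that order, and the difference between these 2 was not tested.

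The machinery that cleaves, sorts and releases neurotrophins had few calls. Over all genes, taken at the brightest probe set each, 2.62% of 14217 were higher and 0.844% lower, at an unadjusted p under 0.05 8.78% were higher and 7.10% lower, and the median change was 0.00. Of 21 measured genes of this list 1 rose and 0 fell by limma (3 higher and 0 lower at an unadjusted p under 0.05), with a median change of 0.00. The riser was Scg2, secretogranin 2, a protein of the dense core vesicles, which went from 4824 ± 83.4 (SD, n = 6) to 5340.1 ± 96.6 (1.11-fold, limma adjusted p = 0.000401). The others, among them the convertase genes Furin and Pcsk2 and the protease gene Plat, did not pass. When all probe sets of a gene were averaged, as for Ntrk2 above, the convertase gene Pcsk5 fell by 0.07 on the log2 scale and also passed (limma adjusted p = 0.0102). Genes given from this averaging were named after their values were seen.

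Among adaptors and kinases downstream of Trk receptors 2 of 42 measured genes rose and 0 fell (5 higher and 2 lower unadjusted), with a median change of 0.03. Irs2, an adaptor best known from insulin signalling, went from 665 ± 21.0 to 1278 ± 66.1 (1.92-fold, limma adjusted p = 1.93e-07). Ptpn11, the phosphatase SHP2, which joins Trk adaptors to the Ras and ERK route, went from 3797 ± 86.4 to 4017 ± 69.9 (1.06-fold, limma adjusted p = 0.0280). The Ptpn11 call was lost in 12 of 26 alternatives, at a largest adjusted p of 0.158, including 9 of the 12 that left out 1 animal (all but those without control 2 or exposed animals 3 or 4). With all probe sets of a gene averaged, the Trk genes that passed were Irs2, Sos1 (0.09, limma adjusted p = 0.0495) and, with a decrease, Shc2 (-0.12, limma adjusted p = 0.0255), and no longer Ptpn11. Among partners and effectors of p75, 2 of 25 rose and 0 fell (3 higher and 0 lower unadjusted), with a median of 0.01: Traf3, an adaptor of TNF family receptors (1.17-fold, limma adjusted p = 0.0171), and Nfkb1, a subunit of NF-kappa-B (1.15-fold, limma adjusted p = 0.00762). The call of Traf3 was lost with an RNA quality covariate (adjusted p = 0.0788), with the animal number as a block (0.124) and without control 4 and exposed 3 and 5 together (0.153). The call of Nfkb1 was lost in the latter pair of these (0.0590 and 0.0814). With all probe sets averaged, Lingo1, a co-receptor of p75, also passed (0.12, limma adjusted p = 0.0314).

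Of 24 measured transcription factors and cofactors with a known role at Bdnf promoters, 2 rose and 0 fell (3 higher and 1 lower unadjusted), with a median of 0.00. Crem, a CREB family gene whose short form ICER is itself induced by cAMP, went from 766 ± 121 (SD, n = 6) to 1396 ± 182 (1.83-fold, limma adjusted p = 0.00191). Srf, the serum response factor, went from 1293 ± 54.9 to 1574 ± 75.5 (1.22-fold, limma adjusted p = 0.00191). Creb1 itself had a change of 0.17 (limma adjusted p = 0.734) and Rest, the neuronal gene repressor, one of -0.01 (adjusted p = 1).

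Genes that neurons are known to raise when given BDNF had the most calls, 13 of 21 rising and 0 falling (16 higher and 0 lower unadjusted), with a median change of 0.38. This list holds many genes that neuronal firing raises by other routes as well, and it was chosen with earlier results of these data known. The 4 with the smallest p were Egr1, Egr2 and Fos, which code for transcription factors, and Arc, with changes of 1.27, 3.63, 2.77 and 2.57 (largest limma adjusted p = 1.91e-05). Vgf, a secreted peptide precursor of neurons, named here after its value was seen, rose 1.30-fold (limma adjusted p = 0.0468), a call kept in 8 of 26 alternatives. Npy and Sst, neuropeptide genes that BDNF raises in interneurons, had changes of -0.04 and 0.01 and did not pass (limma adjusted p = 0.895 and 1). Of other neuropeptide genes in the list, Crh rose 1.42-fold (limma adjusted p = 0.0277) and Tac1 had a change of 0.15 (limma adjusted p = 0.394). The call of Crh was not followed through the alternatives.

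Among other trophic factors and their receptors, the GDNF, CNTF, IGF, FGF and VEGF families included, 1 of 32 rose and 0 fell (5 higher and 1 lower unadjusted), with a median of 0.02. The riser was Manf, a neurotrophic factor of the endoplasmic reticulum, which went from 1559 ± 77.5 (SD, n = 6) to 1964 ± 115 (1.26-fold, limma adjusted p = 0.00216). Its size was below that of Bdnf at either probe set. Apart from the genes induced by BDNF, the lists had 1 to 2 risers each and medians within 0.04 of 0. All lists were chosen with earlier results of these data known, so this contrast is a description and not a test.

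**Figure D4:**
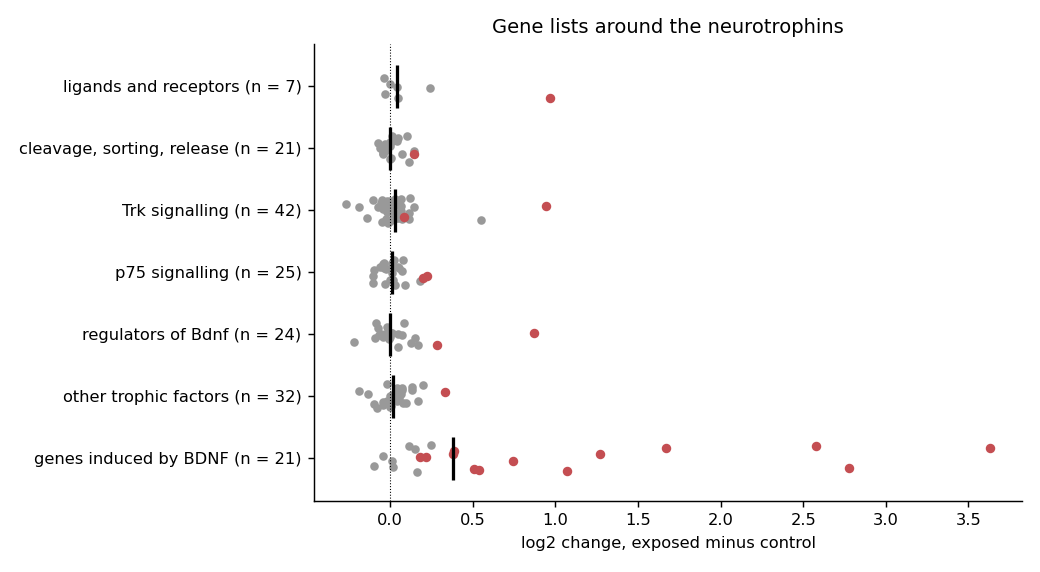
Log2 change (exposed minus control, horizontal axis) of each measured gene in 7 lists, at its brightest probe set. Red points passed at a limma adjusted p under 0.05, grey points did not, and black bars are list medians, 0.38 for the genes induced by BDNF and within 0.04 of 0 for the other 6 lists. The red point of the top row is Bdnf. The lists were chosen with earlier results of these data known.

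Genes with levels closest to that of Bdnf were sought by a root mean square difference over the 12 animals. It was taken between their log2 level, centred on the control mean, and that of the brighter Bdnf probe set. This measure largely matches the size of the group change. A small value does not show that a gene followed Bdnf from animal to animal. Among 10307 genes brighter than the 40th percentile the median of this measure was 0.73. The closest were Crem (0.18), Irs2 (0.20), Ier5, an immediate early gene (0.23), the small heat shock protein gene Hspb1 (0.24) and Dusp2, a phosphatase of MAP kinases (0.24). Their increases ran from 1.75-fold to 1.94-fold, a range that the selection itself fixes near that of Bdnf. Exposed animal 5 was also the lowest exposed animal for Crem (1201 against 1263 to 1721) and Dusp2 (298 against 307 to 374), but not for the other 3. The selection used this animal too and favours genes that are low in it. On the log2 scale from the control mean, Bdnf was at 0.41 in this animal and the 5 genes were at 0.66 to 0.94. In the table of starts, TGACGTCA stood before 2 of the 3 starts of Crem and before 0 of the 3 starts listed for Ier5, Hspb1 and Dusp2 together. Irs2 had no start in that table and could not be searched.

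**Figure D5:**
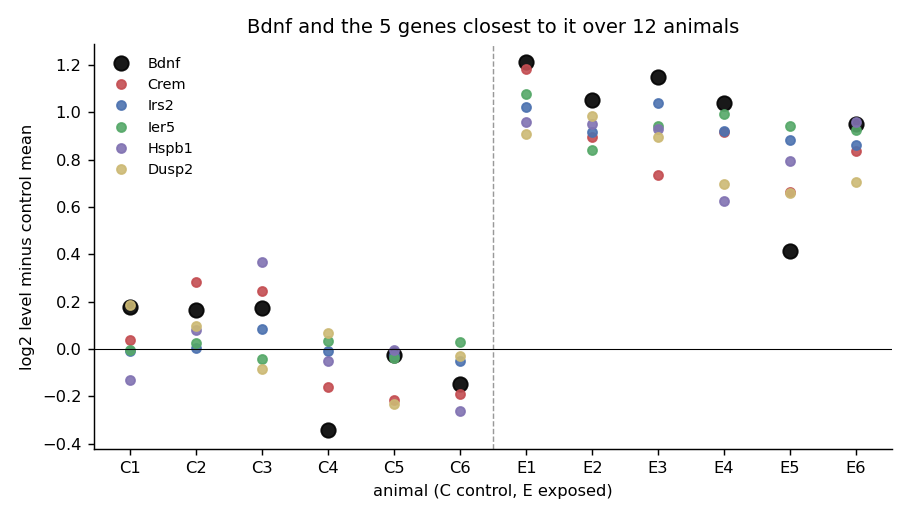
Log2 level minus the control mean (vertical axis) of Bdnf (black) and the 5 genes with the smallest root mean square difference from it, in 6 control (C) and 6 exposed (E) animals. In every exposed animal all 6 genes are above 0.4, and Bdnf is lowest in animal E5, at 0.41.

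Cell type and RNA quality measures were set beside these results. Of 12 cortex and hippocampus markers 0 passed the limma test (4 at an unadjusted p under 0.05, 2 higher and 2 lower), and their summed intensity ran from 33252 to 36398 in control and from 33096 to 35579.8 in exposed animals. With their mean as a covariate Bdnf changed by 0.95 ± 0.15 (limma adjusted p = 0.00819). Of 11 astrocyte markers, cells that hold much of the forebrain's Ntrk2, 0 passed (1 higher at an unadjusted p under 0.05), with summed intensities of 69884 to 74518 and 68194 to 74268. Among 12 endothelial and mural markers 1 fell, Slco1a4 (1 higher and 3 lower unadjusted, 10 of 12 with a negative change), and the sums were 10677 to 11529 and 10440.1 to 10770.0. None of the other 8 marker lists, of neurons, oligodendrocytes, their precursors, microglia, meninges, striatum, thalamus and basal forebrain cholinergic neurons, had a gene that passed. At an unadjusted p under 0.05 these 8 lists had 0 to 2 genes higher and 0 to 2 lower each, where 8.78% and 7.10% of all genes were. Meningeal markers had a negative change in 10 of 11 genes, with a median of -0.09. Of all 14217 genes, 8335 were counted as negative. That count includes genes at the floor on every array, whose change is 0 but for rounding. The part of the endothelial and meningeal shifts in the values of Bdnf and its receptors was not tested. RNA quality was read from control probe sets as their 3 prime minus 5 prime log2 difference. It averaged 0.389 ± 0.0471 (SD, n = 6) over control animals and 0.45 ± 0.0696 over exposed animals, which an exact two-sided permutation test compared at p = 0.0823. Exposed animal 3 stood highest at 0.586, while the other exposed animals lay at 0.391 to 0.443 and control animals at 0.332 to 0.439. With this measure as a covariate both Bdnf probe sets still passed, at changes of 0.87 and 0.40 (limma adjusted p = 0.0220 and 0.0217).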

How the data were processed

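Forebrain RNA of 12 rats was measured on 1 array each. The authors deposited linear intensities, 1 for every probe set on every array, between 12.56 and 34828. Their background correction, summarisation and normalization steps are, in the sources used here, not given. The array medians lay between 235 and 245, so no further normalization was applied. Array numbers limit precision. Values under the 20th percentile of intensity (53.9) were set to it as a floor before log2 was taken. The group was the only term in lmFit and eBayes (trend) of limma 3.58.1 in R 4.3.3, with Benjamini-Hochberg adjustment over 31042 probe sets, leaving out 57 control probe sets. The fit was tested on simulated data. The annotation pairs 20832 probe sets with exactly 1 symbol, 436 with more and 9831 with no symbol. The rule for named genes took all members, up to 4 passing genes per list and direction with the smallest p, and the 5 genes closest to Bdnf. Furin, Pcsk2, Plat, Creb1, Rest, Npy, Sst, Crh, Tac1, Chat, Slc5a7 and Slco1a4 were named outside this rule. So were Vgf and the genes given from averaging over probe sets. Members and lists were chosen with earlier results of these data known. Promoter sequences and gene positions are RefSeq's (GRCr8). The labels number the animals 1 to 6 in each group without saying that a number is shared. For this reason the numbers were not taken as pairs in the main fit. Deviations of same-numbered animals correlated at -0.0766 to 0.16. Animals of unlike number were not compared in this way, so these values cannot tell whether same-numbered animals were handled together. Alternatives changed the scaling, floor, filter, eBayes form, array weights, covariates, block and animals used.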

Additional observations from a re-analysis of the deposited data

Results flagged for a closer look

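In the group of exposed animals 3 of the 13 member probe sets had a highest value far from the rest, by Dixon's criterion for 6 values, and animal 5 gave all of them. It read 4025 at Ntrk2 probe set 1368972_at, 2147 at Ntrk2 probe set 1397246_at and 334 at Ntrk3, beside highest values of 3343, 1039 and 248 among the other exposed animals. Both groups of every member probe set were examined, 26 in all, and chance alone flags about 1 in 20 groups. The probe sets share the same animal and array and are not independent. No control group was marked.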

How the results depend on the processing

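The brighter Bdnf probe set passed in all 26 alternatives run, with changes from 0.87 to 1.08, and from 0.90 to 1.08 when 1 animal was left out. The dimmer one passed in 25 of 26, with changes from 0.41 to 0.48 when 1 animal was left out. It missed with the replicate block (the animal number as a block), at an unchanged 0.45 (adjusted p = 0.0659). That block left 1 member probe set passed, in place of 2, and 359 probe sets higher and 76 lower over the array, in place of 610 and 186; calls of Manf (adjusted p = 0.0680), Nfkb1 (0.0590), Vgf (0.0507) and Traf3 (0.124) were also lost with it. Without the dimmest 40% of probe sets 4 member probe sets passed, 2 of Bdnf and 2 of Ntrk2. The share of all probe sets that passed under this filter is not given beside them, so the added calls are not read as a result about the members. The count of lower probe sets was 313 with array weights, 72 with the RNA quality covariate and 103 to 182 when 1 animal was left out (103 without control 3, 106 without exposed 1, 112 without control 5, 117 without control 6). The counts of higher probe sets ran from 453 to 622 with 1 animal left out, and 2 member probe sets passed in each of these fits. Leaving out control 4 and exposed 3 and 5 together, an alternative added after seeing the data, gave 82 lower and lost Nfkb1 (0.0814), Traf3 (0.153), Ptpn11 (0.158) and Vgf (0.209). Signs turned only for members that passed in no alternative: Ntf4 (0.0055 with a floor at the 10th percentile), Sort1 at its brighter probe set (-0.0198 with the RNA quality covariate, -0.0188 with those 3 animals left out), Sort1 at its dimmer one (0.0397 with that covariate, -0.0801 to 0.0252 with 1 animal left out, positive without exposed 3), Ngfr (-0.0678 to 0.0329, positive without control 5) and Ntf3 (-0.0663 to 0.0035, positive without exposed 2). The cause was not tested. Averaging all probe sets of a gene raised the passing members from 1 gene to 2, with no share over all genes to set beside that count. Values near the floor limit what can be said of Ntf4 and Ngfr, and the dim signal of Ntf3 limits what can be said of that gene.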
